A study of Homo sapiens with 288 samples.

Results

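The same amplified cDNA of single cells was made into sequencing libraries in the experiments named EQ and EQ-75%, and the comparison here asks which genes took a different share of the counts in the second of them. A cell was a member when its library held at least 10 to the power of 5.4 counts, and at most 31% of its counts lay in its 50 highest genes, in both experiments. This kept 84 of the 96 cells, 37 of 45 endothelial cells (EC) and 47 of 51 trophoblast-like cells (TB). All cells were made from H1, an established human embryonic stem cell line with 1 genotype, without a transgene named in the labels. For EC, E8 medium carried BMP4 at 5 ng/ml and Activin A at 25 ng/ml over 2 days, and VEGF and WNT were given over the next 3 days. TB had been cultured in E7 medium (E8 without FGF2) with BMP4 at 50 ng/ml and SB431542. EQ and EQ-75% shared the equalized cDNA input and a pooling volume of 2.0 µL per cell, with 96 libraries to a lane, and EQ-75% repeated the whole of EQ at a lower depth. In EQ-Vary, used here as a second yardstick, the pooled volumes were scaled to differ between cells, and whether it drew on the tagmentation of EQ or on a fresh one is not given in the sources used here.

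In this protocol the full-length cDNA is cut and tagged by the Tn5 transposase, amplified by PCR with index primers, cleaned on beads that favour some fragment sizes, and sequenced from the fragment ends. The share of reads that a transcript takes can therefore depend on its length and on its base composition as well as on its abundance: fragments rich in G and C melt and amplify less readily in PCR, and a short cDNA offers few places for a pair of cuts. Ribosomal protein genes are the best known class of abundant, short transcripts, and subunits of the mitochondrial respiratory chain are another. Both libraries of a cell were made from 1 stored cDNA, and between them the tagmentation, PCR, pooling, clean-up, sequencing run and depth changed at once, so that these cannot be told apart.

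Sequences of a few genes that shifted show the range of base composition involved. They are the first 120 coding bases of the GENCODE v44 canonical transcript on GRCh38, written 5′ to 3′, with G and C in capitals. The genes compared here were those named for the lowest or highest shifts among genes called the same way in both cell types. Of the lower ones that share no 51-base window with another gene, IGFBP2 (chr2:216632828-216664436, plus strand) and EEF2 (chr19:3976056-3985463, minus strand) had the richest transcripts in GC. ERH (chr14:69380128-69398299, minus strand) had the poorest of those. GOLT1B (chr12:21501781-21518408, plus strand) and PPP1CB (chr2:28751640-28802940, plus strand) had the poorest and LHFPL5 (chr6:35797206-35845397, plus strand) the richest among the higher genes compared. For RPS29 (chr14:49570984-49599164, minus strand), a ribosomal protein gene, the whole coding sequence of 171 bases is given to show how short such a gene is.
IGFBP2: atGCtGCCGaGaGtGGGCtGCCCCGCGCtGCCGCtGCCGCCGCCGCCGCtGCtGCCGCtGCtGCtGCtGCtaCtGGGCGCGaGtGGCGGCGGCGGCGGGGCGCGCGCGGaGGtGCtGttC
EEF2: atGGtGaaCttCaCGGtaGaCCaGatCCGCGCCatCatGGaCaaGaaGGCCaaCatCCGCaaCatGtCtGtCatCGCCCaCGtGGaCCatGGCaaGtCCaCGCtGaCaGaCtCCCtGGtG
ERH: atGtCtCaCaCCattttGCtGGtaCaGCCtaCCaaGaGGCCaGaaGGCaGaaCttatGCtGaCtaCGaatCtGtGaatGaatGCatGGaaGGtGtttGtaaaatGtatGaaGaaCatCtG
GOLT1B: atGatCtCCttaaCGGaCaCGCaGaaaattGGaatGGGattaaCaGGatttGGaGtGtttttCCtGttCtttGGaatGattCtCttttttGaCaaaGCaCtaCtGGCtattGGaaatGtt
PPP1CB: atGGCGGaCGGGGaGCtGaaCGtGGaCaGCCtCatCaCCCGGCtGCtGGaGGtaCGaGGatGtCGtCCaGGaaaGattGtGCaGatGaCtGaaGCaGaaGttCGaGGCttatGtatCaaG
LHFPL5: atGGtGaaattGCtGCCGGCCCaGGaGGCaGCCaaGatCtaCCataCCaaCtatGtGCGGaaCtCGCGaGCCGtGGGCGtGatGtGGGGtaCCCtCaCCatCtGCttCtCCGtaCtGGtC
RPS29: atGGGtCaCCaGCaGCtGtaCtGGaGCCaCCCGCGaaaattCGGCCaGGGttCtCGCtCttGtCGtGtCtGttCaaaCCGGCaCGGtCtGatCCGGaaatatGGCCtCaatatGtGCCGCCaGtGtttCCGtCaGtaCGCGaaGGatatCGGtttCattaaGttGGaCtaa

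In the stretches shown, G and C made up 79.2% of the bases of IGFBP2 and 56.7% of those of EEF2, against 37.5% in GOLT1B. The start of the coding sequence does not stand for the whole transcript: PPP1CB held 55% in this stretch but 35.7% over its canonical transcript. Over whole transcripts the content was 67.4% in IGFBP2, 59.9% in EEF2, 42.4% in ERH, 33.2% in GOLT1B and 51.5% in LHFPL5.

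The summed marker levels followed the labels in their medians, while some single markers were at or near 0. The summed level of 21 endothelial markers, in CPM (counts scaled to a library total of 1000000), ran from 651 to 11404 with a median of 6627 in EC in EQ and from 5.14 to 157 with a median of 32.7 in TB. For 17 trophoblast markers it ran from 115 to 3967 (median 511) in EC and from 3385 to 18846 (median 6509) in TB. Among the endothelial markers LYVE1 was at 0 in all 37 EC cells in EQ and CLDN5 in 21 of them, and among the trophoblast markers CDX2 was at 0 in 46 of 47 TB cells and CGA had a median of 1.99 CPM in TB and 1.26 in EC. GATA2 had a median of 17.5 CPM in TB and 34.03 in EC, and ran from 0 to 362 CPM in TB and from 0 to 387 in EC. The 84 cells had total counts of 365570 to 3966800 in EQ and of 291354 to 3798200 in EQ-75%, and 1 count at the median total was worth 0.533 CPM. From 53.7% to 62.7% of the values above 0 were not whole numbers in the 6 tables of a cell type and experiment, and the counting program can divide reads among genes that share sequence. Each experiment is 1 pooled preparation that held both cell types, so no p-value was computed, and the SD given with a value is the spread over cells.

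The shift of a gene was taken as the median over cells of the within-cell difference, log2(CPM + 1) in EQ-75% minus log2(CPM + 1) in EQ. A cell entered for a gene when the mean of its CPM in both experiments was at least 10, and a gene was called measured when at least 20 cells entered. A gene was called lower or higher when its shift was at least 0.25 in size, a 1.19-fold difference, and at least 75% of its cells lay on that side of 0. In EC, 401 of 4282 measured genes were lower (9.36%) and 39 were higher (0.911%) in EQ-75%. In TB, 241 of 6005 were lower (4.01%) and 97 were higher (1.62%). Shifts of at least 0.5 with at least 90% of cells on 1 side were rarer: 19 genes lower (0.444%) and 2 higher (0.0467%) in EC, and 10 lower (0.167%) and 2 higher (0.0333%) in TB.

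Between EQ-Vary and EQ the same rule called nearly nothing: 2 of 4481 genes lower in EQ-Vary (0.0446%) and 0 higher (0%) in EC, and 1 of 6033 lower (0.0166%) and 0 higher (0%) in TB, with no test made and so no count at an unadjusted p. Between EQ-75% and EQ-Vary, which share EQ-75% with the main comparison, 332 genes were lower (7.75%) and 43 higher (1%) in EC, and 231 lower (3.94%) and 94 higher (1.6%) in TB. The middle 98% of the gene shifts between EQ-75% and EQ ran from -0.47 to 0.26 in EC, and between EQ-Vary and EQ from -0.14 to 0.14. The median of all genes was itself -0.058 in EC and -0.023 in TB on the log2 scale. With each cell centred on its own median difference, the calls became 207 lower and 114 higher in EC, where the share of calls that were higher rose from 8.86% to 35.5%, and 194 lower and 145 higher in TB, from 28.7% to 42.8%. TMM factors gave 222 lower and 137 higher in TB, a share of 38.2%. In EC they gave 379 lower and 46 higher, a share of 10.8%, so that the calls there stayed mostly lower.

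The shift had the same sign in EC and TB for 83.6% of the 3886 genes measured in both. Of these, 125 were lower in both, 28 were higher in both and 0 were called in opposite directions. The 361 genes called lower in EC and measured in TB had a median shift of -0.21 in TB, with 351 of them below 0 there, and 34.6% of them were also called in TB. The 178 called lower in TB had a median of -0.32 in EC, all 178 were below 0, and 70.2% were called in EC. Of the genes called higher, 71.8% of the 39 in EC were called in TB, and 46.7% of the 60 in TB were called in EC. Across the 3886 genes Pearson's r between the EC and TB shifts was 0.80 and Spearman's rho 0.79; this is a description across genes, which are not independent, and libraries of both cell types lay in 1 pool and lane per experiment.

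**Figure D1:**
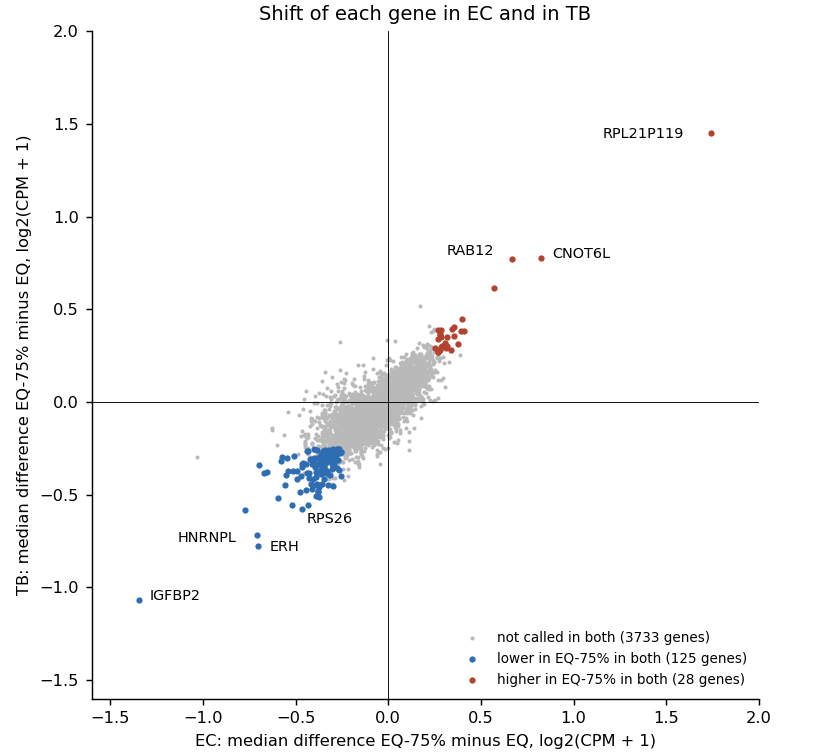
Each point is 1 of 3886 genes measured in both cell types, with its shift in 37 EC cells on the x axis and in 47 TB cells on the y axis, both as the median difference in log2(CPM + 1) of EQ-75% minus EQ. The 125 genes lower in both (blue) and the 28 higher in both (red) lie on 1 diagonal, with IGFBP2 at the low end and RPL21P119 at the high end.

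Over genes of all levels, transcripts rich in G and C took a smaller share of the counts in EQ-75%, and transcripts rich in A and T a larger one. With the measured genes divided into 10 equal groups by the GC content of their canonical transcript, the median shift in EC fell from 0.10 in the lowest group, with 30.7% to 37.6% GC, to -0.22 in the highest, with 56.7% to 70.8%. In TB it fell from 0.12 to -0.14. For the highest minus the lowest group this made -0.32 in EC and -0.26 in TB, against -0.025 and -0.013 between EQ-Vary and EQ. Each of the 10 groups lay below the one before it in both cell types. Of the genes in the highest group, 33.4% in EC and 13.5% in TB were called lower and 0 were called higher; in the lowest group 0.935% and 0% were called lower, and 5.14% and 7.83% higher. The correlation of shift with GC content across genes was -0.59 (Spearman's rho -0.62, 4272 genes) in EC and -0.58 (rho -0.63, 5992 genes) in TB, as a description. Genes called lower had a median GC content of 53.8% in EC and 54.3% in TB, genes called higher 36.7% and 37.8%, and all measured genes 44.6% and 44.7%.

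**Figure D2:**
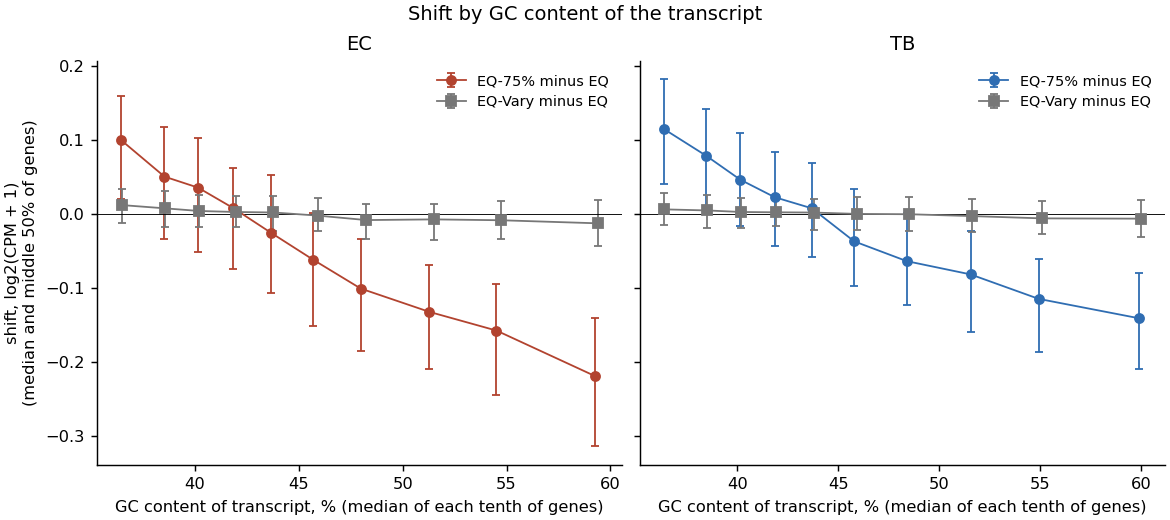
The x axis gives the median GC content (%) of each of 10 equal groups of genes, and the y axis the median shift in log2(CPM + 1) of the group, with bars over the middle 50% of its genes. The shift of EQ-75% minus EQ (coloured circles) falls by 0.32 from the lowest to the highest group in EC and by 0.26 in TB, while EQ-Vary minus EQ (grey squares) stays within 0.013 of 0.

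The direction held in most cells, and its size did not. Computed within each cell, the difference between the highest and the lowest GC group was below 0 in 35 of 37 EC cells, with a lowest value of -2.12, a median of -0.28 and a highest of 0.060. It was below 0 in 42 of 47 TB cells, from -2.22 through a median of -0.27 to 0.33. The lowest values belonged to the cells EC 13 and TB 16, and the highest to EC 18 and TB 32. Without EC 13 and TB 16 the difference over genes came to -0.30 in EC and -0.24 in TB, with calls of 351 lower and 37 higher in EC and 233 lower and 88 higher in TB. The per-cell value had a Spearman's rho with the ratio of the cell's total counts in EQ-75% and EQ of 0.17 over 37 EC cells and 0.099 over 47 TB cells (Pearson's r with the log ratio 0.14 and -0.36), as a description of values that share both libraries.

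The GC content of a library, taken as the mean over transcripts weighted by their counts, showed in which experiment a cell stood apart. It ran from 44.2% through a median of 45.6% to 48.4% over the EC cells in EQ, and from 44.3% through 45.1% to 46.4% in EQ-75%. In TB it ran from 44.5% through 45.7% to 49.3% in EQ and from 43.97% through 45.3% to 47.1% in EQ-75%. It was lower in EQ-75% in 34 of 37 EC cells and in 42 of 47 TB cells, with a median difference of -0.404 and -0.401 percentage points. The SD over cells was 0.866 points in EQ and 0.455 in EQ-75% for EC, and 0.742 and 0.474 for TB. Without the 2 highest cells of each type in EQ it was 0.652 and 0.468 in EC (without EC 13 and EC 25) but 0.413 and 0.472 in TB (without TB 16 and TB 40), so that the narrower spread in TB rested on those 2 cells. TB 40 was at 48.2% in EQ and 45.1% in EQ-75%. EC 13 went from 48.4% in EQ and 47.95% in EQ-Vary to 45.002% in EQ-75%, and TB 16 from 49.3% and 48.9% to 46.1%, so that both were the highest of their type in EQ and EQ-Vary and inside the range of the other cells in EQ-75%. EQ-Vary differed from EQ by a median of -0.013 points in EC and -0.012 in TB, and was lower in 32 of 37 and 39 of 45 cells.

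**Figure D3:**
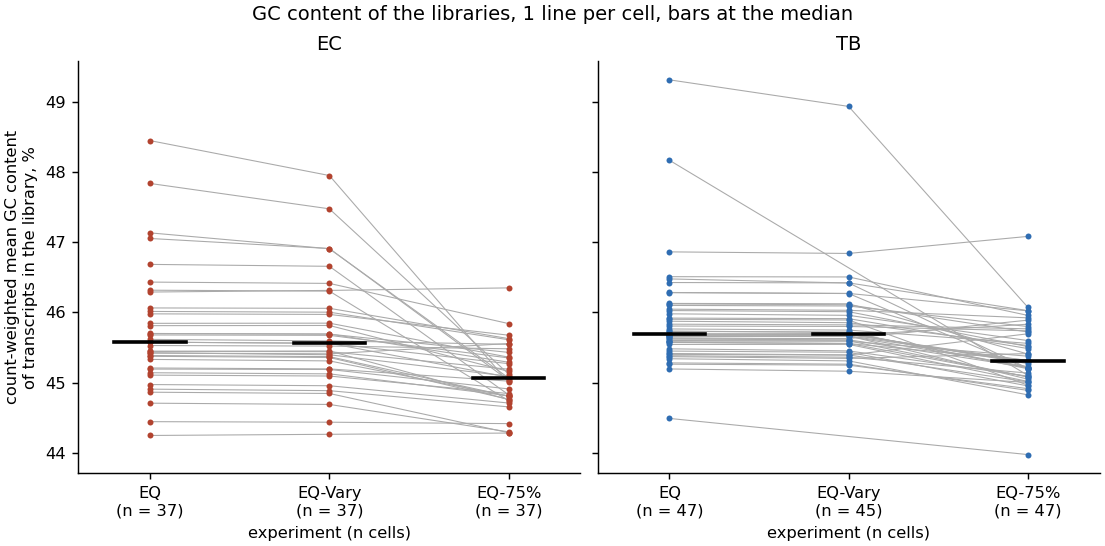
Each line joins the libraries of 1 cell, and the y axis gives the count-weighted mean GC content (%) of the transcripts in each experiment, with black bars at the medians. Between EQ and EQ-Vary 33 of 37 EC cells and 44 of 45 TB cells differ by less than 0.1 points, with EC 13 lowest at -0.498, and in EQ-75% the range narrows from 44.2% to 48.4% down to 44.3% to 46.4% in EC.

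The shortest transcripts were lower too. The 10% of genes with the shortest transcripts, 210 to 1158 bases in EC and 210 to 1199 in TB, had a median shift of -0.17 and -0.14, and 27.3% and 17.8% of it were called lower, whereas the 10% with the longest were at -0.021 and 0.0046. Within each of 3 equal groups by GC content the shortest 10% were again below the rest. In the group with the least GC they were at 0.0043 against 0.056 in EC and 0.049 against 0.077 in TB, and in the group with the most GC at -0.20 against -0.15 and -0.16 against -0.095. Over 3 equal groups by length, from short to long, the medians lay close together. With the least GC they were 0.053, 0.063 and 0.049 in EC and 0.069, 0.087 and 0.073 in TB. With the most GC they were -0.18, -0.16 and -0.15 in EC and -0.12, -0.099 and -0.10 in TB. The GC order held in each of 3 equal groups by length: among the longest transcripts the median fell from 0.049 to -0.15 in EC and from 0.073 to -0.10 in TB between the outer groups by GC.

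Genes of low level were lower in EQ-75% as well, with a median shift of -0.17 in the lowest and 0.014 in the highest 10% by mean CPM in EC, and -0.13 and 0.0090 in TB. In the highest of 3 equal groups by level the median still fell with GC, from 0.093 to -0.10 in EC and from 0.094 to -0.082 in TB. In the lowest of the 3 it fell from -0.045 to -0.21 in EC and from 0.016 to -0.15 in TB. Genes of low level with the least GC were thus not higher in EC. Shared sequence, measured as the share of a transcript's 51-base windows that also occur in another protein-coding gene, went with smaller differences: the median shift was -0.027 without a shared window and -0.11 with over 50% shared in EC, and -0.0051 and -0.067 in TB.

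The named genes that were lower in both cell types were led by IGFBP2, a secreted protein that binds insulin-like growth factors. In EC it was at 6.92 CPM in the lowest, 39.2 in the median and 169 in the highest of the 37 EC cells in EQ, and 0, 16.6 and 125 CPM in EQ-75%. In TB it was at 1.89 CPM in the lowest, 31.3 in the median and 167 in the highest of the 47 TB cells in EQ, and 0, 13.3 and 81.5 CPM in EQ-75%. The ranges overlapped, but within cells the change had 1 direction: EQ-75% was lower in 35 of 35 measurable EC cells and 38 of 38 TB cells, and the shift was -1.35 in EC (SD 0.86 over 35 cells) and -1.07 in TB (SD 0.71 over 38 cells). Between EQ-Vary and EQ it was 0.027 in EC and 0.044 in TB.

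EEF2, the elongation factor that moves the ribosome along the messenger, was far more abundant. Its level was 51.3 CPM in the lowest, 134 in the median and 556 in the highest of the 37 EC cells in EQ, and 26.5, 82.5 and 284 CPM in EQ-75%. In TB it was 109 CPM in the lowest, 327 in the median and 848 in the highest of the 47 TB cells in EQ, and 68.6, 246 and 521 CPM in EQ-75%. It was lower in 37 of 37 EC cells and 46 of 47 TB cells, with a shift of -0.65 in EC (SD 0.35 over 37 cells) and -0.38 in TB (SD 0.34 over 47 cells). SERPINH1, the collagen chaperone of the endoplasmic reticulum, had a median of 149 CPM (range 21.6 to 1220.0) in EQ and 86.2 CPM (10.4 to 1371) in EQ-75% in EC and of 31 CPM (range 0.769 to 188) in EQ and 16.7 CPM (0.894 to 144) in EQ-75% in TB. It was lower in 35 of 37 and 36 of 39 cells, with shifts of -0.77 in EC and -0.58 in TB.

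Most of the other named genes that were lower had over 54% GC: the splicing regulator HNRNPL (-0.71 in EC and -0.71 in TB, 54.3% GC), the phospholipase PLCG1 (-0.59 in EC and -0.52 in TB, 54.1%), TEAD2, a transcription factor that works with YAP and TAZ (-0.67 in EC and -0.38 in TB, 58.1%), and the actin crosslinker ACTN4 (-0.70 in EC and -0.34 in TB, 58.6%). HNRNPL and ACTN4 share 24.4% and 15.2% of their windows with other genes, so part of their counts depends on how reads were divided. The same holds for RPS26, named below, which shares 25.0%. PLCG1 was measurable in 30 EC cells and only 21 TB cells, 16 of which were lower. The other 3 were not rich in GC but short: ERH, a small conserved nuclear protein (-0.70 in EC (SD 0.37 over 37 cells) and -0.77 in TB (SD 0.51 over 46 cells), 42.4% GC, 791 bases), RPS26 (-0.52 in EC and -0.56 in TB) and NDUFB1, an accessory subunit of respiratory complex I (-0.47 in EC and -0.58 in TB, 317 bases). In EC, ERH was at a median of 61.8 CPM (range 15.3 to 469.9) in EQ and 41 CPM (7.91 to 223) in EQ-75%, and 36 of 37 cells were lower.

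Of the named genes that were higher in both cell types, CNOT6L, a deadenylase of the CCR4-NOT complex that shortens poly(A) tails, moved most among those without shared sequence. In EC it was at 6.39 CPM in the lowest, 21 in the median and 339 in the highest of the 37 EC cells in EQ, and 23.3, 47.7 and 322 CPM in EQ-75%. In TB it was at 4.02 CPM in the lowest, 29.9 in the median and 606 in the highest of the 47 TB cells in EQ, and 3.92, 53.1 and 684 CPM in EQ-75%. It rose in 35 of 37 EC cells and 46 of 46 TB cells, with a shift of 0.82 in EC (SD 0.61 over 37 cells) and 0.78 in TB (SD 0.49 over 46 cells). RAB12, a small GTPase of endosomes, was among the abundant genes, with a median of 1802 CPM (range 611 to 13929) in EQ and 2960.2 CPM (1047 to 22322) in EQ-75% in EC and of 1752 CPM (range 610.2 to 6761) in EQ and 2884 CPM (414 to 11382) in EQ-75% in TB. It was higher in 36 of 37 and 45 of 47 cells, with shifts of 0.67 in EC (SD 0.49 over 37 cells) and 0.77 in TB (SD 0.48 over 47 cells). Its transcript had 45.4% GC, near the median of all genes, made up of 60.5% in the coding sequence and 31.5% in the 3′ untranslated part.

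PPP1CB, a catalytic subunit of protein phosphatase 1, was at a median of 3523 CPM (range 665 to 8691) in EQ and 4674 CPM (1537 to 11546) in EQ-75% in EC and of 3365 CPM (range 459 to 7940.0) in EQ and 4771 CPM (580.1 to 9429.6) in EQ-75% in TB, and was higher in 35 of 37 and 44 of 47 cells. ABCA1, the transporter that exports cholesterol to lipoproteins, was at 735 CPM (range 13.3 to 4617) in EQ and 1004 CPM (13.7 to 5664) in EQ-75% in EC, with shifts of 0.35 in EC and 0.36 in TB. GOLT1B, a Golgi transport protein, shifted by 0.39 in EC and 0.38 in TB, FAM171B, a membrane protein, by 0.40 in EC and 0.45 in TB and the ubiquitin ligase RNF11 by 0.35 in EC and 0.40 in TB. LHFPL5, a subunit of the mechanotransduction channel of hair cells, had a low level here, with EC medians of 17 and 24.9 CPM. At 51.5% it had the most GC of the genes named for the highest shifts in both cell types. It shifted by 0.57 in EC and 0.62 in TB. The order of these genes by shift was not their order by GC content, and the SDs over cells, 0.40 to 0.74 for these 6 genes, were larger than the shifts in most cases.

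**Figure D4:**
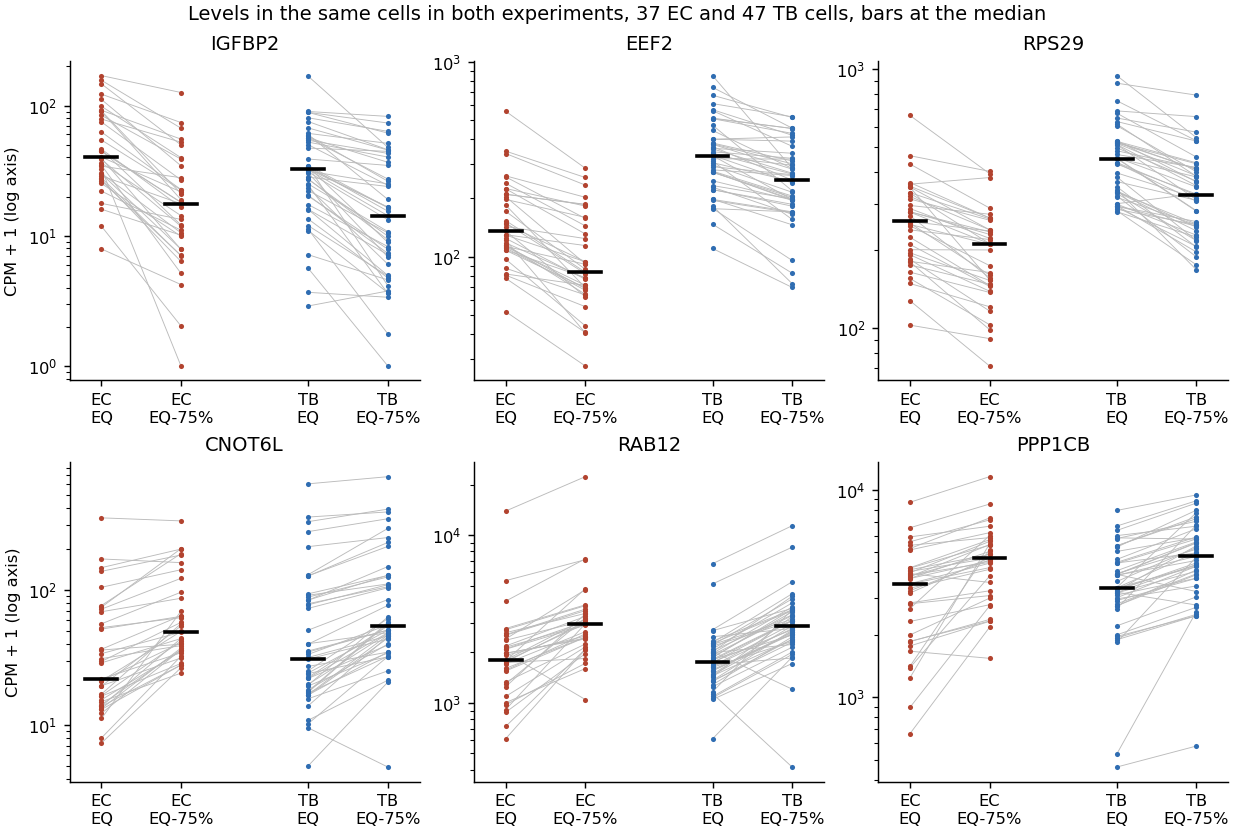
Each line joins the level of a gene in EQ and in EQ-75% of 1 cell, as CPM + 1 on a log axis, for 37 EC (red) and 47 TB cells (blue), with black bars at the medians. IGFBP2, EEF2 and RPS29 fall in nearly every cell, and CNOT6L, RAB12 and PPP1CB rise, while the ranges of the cells overlap between the experiments.

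Values of 2 named higher genes are uncertain because other genes share their sequence. RPL21P119, which the annotation used here lists as a processed pseudogene of RPL21, shares 82.8% of its windows and shifted by 1.74 in EC (SD 3.17 over 27 cells) and 1.45 in TB (SD 3.82 over 40 cells). It was at 0 counts in 15 EC cells in EQ and in 7 in EQ-75%, and in 20 and 3 TB cells. RPL21 itself had shifts of -0.22 in EC and -0.28 in TB, and the sum of both genes, which does not depend on how reads were divided between them, shifted by -0.10 in EC and -0.18 in TB. MATR3, a nuclear RNA-binding protein, shares 97.7% of its windows and shifted by 0.41 in EC (SD 1.14 over 33 cells) and 0.38 in TB (SD 1.26 over 44 cells). The sum of RPL36A and the readthrough gene RPL36A-HNRNPH2 had a shift of -0.43 in EC, where all 37 cells were lower, and of -0.40 in TB. The sum of 6 PPIAL4 genes, near-identical copies of a peptidylprolyl isomerase, shifted by -0.26 in EC and was at -0.21 in TB.

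Cytosolic ribosomal protein genes were lower almost as a whole. In EC, 34 of 79 measured genes were called lower, beside 9.36% of all genes, 0 were called higher, and 78 had a shift below 0, with a median of -0.23. In TB, 34 of 80 were called lower, beside 4.01% of all genes, 0 were called higher, all 80 lay below 0, and the median was -0.24. The genes ran from -0.52 to 0.014 in EC and from -0.56 to -0.0043 in TB, with RPS26 lowest in both. Between EQ-Vary and EQ the median of the list was -0.014 in EC. Within cells, the median of these genes lay below the median of all genes in 37 of 37 EC cells and 44 of 47 TB cells. The 51 EC genes and 52 TB genes without a shared window had medians of -0.23 in both cell types.

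Genes with short coding sequences had the lower shifts as a group, but not in order of size. RPL41, the smallest with 78 coding bases, was at -0.31 in EC and -0.30 in TB, RPL39 (156 bases) at -0.34 and -0.37 and RPL38 (213 bases) at -0.30 and -0.32. RPS26, the lowest of all, has 348, and RPL13, with 636, was at -0.43 in EC and, not called, at -0.25 in TB. RPS27, RPS28 and RPS29, whose products are among the smallest of the small subunit, had shifts of -0.44, -0.41 and -0.41 in EC and -0.48, -0.44 and -0.42 in TB. RPS29 was at 101 CPM in the lowest, 257 in the median and 662 in the highest of the 37 EC cells in EQ, and 70.1, 209 and 402 CPM in EQ-75%. In TB it was at 279.9 CPM in the lowest, 450.1 in the median and 944 in the highest of the 47 TB cells in EQ, and 167, 324 and 793 CPM in EQ-75%. It was lower in 36 of 37 and 46 of 47 cells. RPL3 and RPL23, the most abundant members, had shifts of -0.076 in EC and -0.095 in TB for RPL3, which has a coding length of 1212 bases, and of -0.26 in EC and -0.28 in TB for RPL23, with 423 bases. Of 3 equal groups by coding length, the one up to 393 bases had a median of -0.30 in EC and -0.32 in TB, the middle one -0.23 and -0.24, and the one from 579 to 1284 bases -0.14 and -0.13, with 19, 10 and 5 genes called lower in EC and 22, 11 and 1 in TB. Spearman's rho of shift with coding length was 0.65 over 79 genes in EC and 0.78 over 80 in TB, and with GC content -0.18 and -0.048. The genes share the same libraries and are not independent. RPS27 and RPS28 also share 50.99% and 35.4% of their windows with other genes, RPL39 37.1%, RPS26 25.0% and RPS29 0%.

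**Figure D5:**
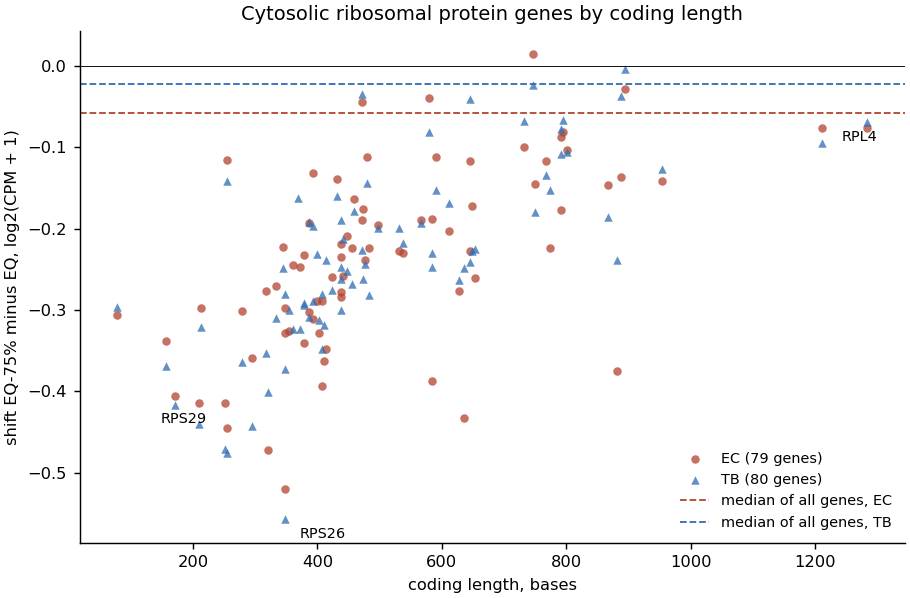
The x axis gives the coding length (bases) of each cytosolic ribosomal protein gene and the y axis its shift in log2(CPM + 1), as circles for 79 genes in EC and triangles for 80 in TB, with dashed lines at the median of all genes, -0.058 and -0.023. Genes up to 393 bases lie between -0.12 and -0.56, RPL13 with 636 bases lies at -0.43 in EC, and the longest, RPL4, lies at -0.077 in EC and -0.070 in TB.

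Nuclear-encoded subunits of the respiratory chain and ATP synthase, also short, followed the same direction. In EC, 23 of 73 were called lower, beside 9.36% of all genes, and 1 higher, with a median shift of -0.17. In TB 15 of 77 were lower, beside 4.01%, and 1 higher, with a median of -0.15. The small ATP synthase subunits ATP5I and ATP5E shifted by -0.48 in EC and -0.48 in TB and by -0.43 in EC and -0.41 in TB, and the complex IV subunit COX8A by -0.34 in EC and -0.34 in TB. ATP5I had a median of 127 CPM (range 50.7 to 241) in EQ and 89.1 CPM (39.2 to 171) in EQ-75% in EC, and 35 of 37 cells were lower. The most abundant members moved less, with NDUFA4 at -0.08 in EC and -0.12 in TB and ATP5F1 at 0.076 in EC and 0.09 in TB. SDHD, a membrane anchor of complex II with 39.8% GC, was the 1 gene called higher in both cell types, with 0.34 in EC and 0.28 in TB. SDHD and ATP5E share 25.1% and 31.7% of their windows with other genes, so part of their counts depends on how reads were divided. Of the mitochondrial ribosomal proteins, 8 of 44 were called lower in EC (9.36% of all genes) and 3 of 68 in TB, 0 were called higher, and the medians were -0.13 and -0.089. The 3 in TB were MRPL52, MRPL53 and MRPS24, a share near the 4.01% of all genes. The 2 most abundant, MRPS35 and MRPL51, were at 0.047 in EC and 0.05 in TB and at -0.24 in EC and -0.14 in TB.

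The counts for other parts of the translation and protein machinery stand beside 9.36% of all genes lower and 0.911% higher in EC, and 4.01% and 1.62% in TB. Of the translation factors 5 of 41 were lower in EC and 2 of 50 in TB, shares near those of all genes, with medians of -0.026 and -0.025, which turned to 0.022 and 0.0027 with each cell centred on its median. EEF2 and EIF5A, the elongation factor that carries hypusine (-0.58 in EC and -0.32 in TB), were lower in both. EIF5A shares 36.1% of its windows with other genes. EEF1D, EIF4H and EIF5A2 were lower in EC and EEF1E1 higher in TB, while EEF1A1, the most abundant gene of the list with a TB median of 24449.5 CPM (range 5091 to 40986) in EQ and 25151 CPM (4944 to 37982) in EQ-75%, was at -0.0079 in EC and 0.01 in TB and EEF1G at -0.071 in EC and -0.085 in TB. Of the splicing factors 6 of 49 were lower in EC and 5 of 52 in TB (HNRNPAB, HNRNPL, HNRNPUL1, SNRPF and SRSF9), with medians of -0.060 (0.0025 with each cell centred) and -0.058, and the abundant SRSF6 and HNRNPH1 were at 0.15 in EC and 0.17 in TB and at 0.10 in EC and 0.075 in TB. SRSF6 was higher in 36 of 37 and 43 of 47 cells without reaching 0.25. Chaperones had 1 of 41 lower in EC (HSPB1), and 2 of 49 lower (HSPB1 and DNAJC17) and 3 higher (DNAJB14, HSPA13 and HSPE1-MOB4) in TB, and HSP90AB1 and HSPA8 were at -0.016 in EC and -0.037 in TB and at 0.015 in EC and 0.043 in TB. Of the proteasome subunits 0 of 34 and 0 of 38 were called, with PSMB4 at -0.096 in EC and -0.041 in TB and PSMB5 at -0.067 in EC and -0.059 in TB.

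The counts for structural and metabolic genes again stand beside 9.36% of all genes lower and 0.911% higher in EC, and 4.01% and 1.62% in TB. Several of these lists held few measured genes. Of the glycolysis genes 0 of 14 were called in EC and 1 of 15 in TB, the hexokinase HK2, with GAPDH at -0.06 in EC and -0.057 in TB and ENO1 at -0.025 in EC and -0.069 in TB. Actins, tubulins, keratins and their kin had 2 of 18 lower in EC (ACTN4 and TUBB4B) and 1 of 25 in TB (ACTN4); ACTB was at -0.18 in EC and -0.13 in TB and was lower in 35 of 37 and 45 of 47 cells, and ACTG1 was at -0.036 in EC and -0.041 in TB. Histones had 1 of 5 lower in EC (H1F0) and 1 of 10 in TB (HIST1H4B), with H3F3B at -0.036 in EC and 0.0099 in TB and H2AFZ at 0.026 in EC and 0.019 in TB. Collagens had 0 of 5 called in EC and 1 of 9 lower in TB (COL5A1), with COL1A2 at -0.067 in EC and 0.0072 in TB and COL3A1 at 0.039 in TB. Laminins and integrins had 0 of 6 and 0 of 8 called, with ITGB1 at 0.036 in EC and 0.032 in TB and ITGA5 at -0.037 in EC. Of the solute carriers 1 of 62 was lower in EC (SLC27A3) and 0 of 86 in TB, both below the share of all genes. In TB 2 of 86 were higher (SLC12A2 and SLC41A2). SLC2A3 and SLC38A2 were at 0.017 in EC and 0.023 in TB and at 0.099 in EC and 0.13 in TB. Zinc finger genes of the ZNF series had transcripts that were long and poor in GC (median 41.4% and 40.95%). Of them 9 of 107 were lower in EC and 2 of 146 higher in TB (ZNF138 and ZNF43), both near the share of all genes. In TB 0 of 146 were lower, below that share. ZNF451 was at 0.13 in EC and 0.16 in TB and ZNF207 at 0.12 in EC and 0.073 in TB. MTRNR2L genes, whose sequence resembles mitochondrial ribosomal RNA, had 0 of 6 called in both, with MTRNR2L12 at -0.024 in EC and -0.075 in TB and MTRNR2L8 at -0.049 in EC and -0.092 in TB. Of the HOX genes 0 of 39 were measured.

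Most genes that mark cell identity were not called, which holds for all measured genes too. For the endothelial markers in EC the share called lower, 3 of 13, was above that of all genes, and 11 of the 13 had a shift below 0. Of 13 measured endothelial markers in EC, beside 9.36% of all genes, the receptor gene TIE1 (-0.41), EGFL7 (-0.37) and the junction protein gene ESAM (-0.31) were lower, all over 57% GC, and 0 were higher. The 3 most abundant moved little: KDR, the VEGF receptor, at -0.0072 ± 0.12 (SD, n = 37 cells), PECAM1 at -0.022 ± 0.16 (SD, n = 37 cells) and CD34 at -0.076 ± 0.31 (SD, n = 36 cells). KDR had a median of 1859 CPM (range 51.3 to 3318) in EQ and 1853 CPM (41.1 to 3259) in EQ-75%. Of 15 measured trophoblast markers in TB, beside 4.01% of all genes, only HAND1, a transcription factor of the trophoblast and heart, was lower, with -0.53 ± 0.28 (SD, n = 47 cells), a median of 189.9 CPM (range 41.6 to 526) in EQ and 141 CPM (31 to 398) in EQ-75%, and 45 of 47 cells lower. KRT18, KRT8 and VTCN1 were at -0.0045, -0.047 and 0.0037 in TB.

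Among the 11 listed pluripotency genes, not all of them measured, LIN28A, which blocks let-7 maturation, was called lower in both cell types. It is 1 gene and stands beside 9.36% of all genes lower in EC and 4.01% in TB. Its shift was -0.27 in EC (SD 0.32 over 37 cells) and -0.25 in TB (SD 0.21 over 47 cells), and L1TD1 was at 0.041 in TB. Immediate early genes had 0 of 2 called in EC and 4 of 11 lower in TB, beside 4.01% of all genes. EGR1 was at -0.25, with a median of 973 CPM (range 79.4 to 2379) in EQ and 752 CPM (67.1 to 2057) in EQ-75%, and FOSB, IER2 and IER3 were at -0.30, -0.31 and -0.29; FOS, as abundant as EGR1, was at 0.026. Genes of S phase (0 of 1 in EC and 0 of 8 in TB) and of mitosis (0 of 3 in TB) were not called, with RRM1 at 0.018, MCM7 at -0.099, CENPF at -0.03 and CCNB1 at 0.013 in TB. Of the MHC class I genes HLA-C was lower in EC, 1 of 3 beside 9.36% of all genes, and 0 of 3 were called in TB. B2M was at 0.11 in EC and 0.13 in TB and HLA-E at -0.12 in EC and -0.08 in TB. Mesenchymal markers had 0 of 1 and 0 of 4 called; LUM, a proteoglycan of poor GC content (34.9%), was at 0.20 in TB and was higher in 43 of 47 cells.

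Some genes were called in 1 cell type and measured without a call in the other, and the difference between the types was not tested. In EC alone, the tubulin cofactor TBCB was called lower (-0.63, against -0.14 in TB), as were ARHGDIA (-0.60 and -0.23), and TMEM141 (-0.56 and -0.18), each over 20 or 21 EC cells. SH3BGRL (0.33 and 0.22) and the RNA-binding protein FMR1 (0.30 and 0.21) were called higher in EC. In TB alone, FCAR (-0.44, against -0.30 in EC) and ITIH5 (-0.42 and -0.35) were lower. TECRL (0.41 and 0.22) and PPIL6 (0.39 and 0.25) were higher. Each of these genes had the same sign in both cell types.

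PIGW, an enzyme of GPI anchor synthesis, was called lower in EQ-Vary than in EQ in EC, at -0.32. Genes at the limit of 0.25 differed little from those past it: EDEM3 (0.253) and PPIL6 (0.249) stood on either side of it in EC for higher genes, TMEM199 (-0.2502) and SMTN (-0.2499) for lower ones, and in TB FIGN (0.25002) and DCP2 (0.2497), and EGR1 (-0.251) and ANKRD1 (-0.2497). The following genes fall outside the rule for naming and were picked after their values were seen: RPL13, RPL38, RPL39, RPL41, RPS27, RPS28, RPS29, RPL4, RPL21, ATP5I, ATP5E, COX8A, SDHD, EIF5A, RPL36A, RPL36A-HNRNPH2, the PPIAL4 genes, PIGW, TIE1, EGFL7, ESAM, HAND1, FOSB, IER2, IER3, and the members of short lists given without a value.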

How the data were processed

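Single H1-derived EC and TB cells were captured and their cDNA amplified by the authors, who made libraries of the same cDNA for each experiment. Reads were trimmed to 51 bases, mapped with Bowtie 1.2.3 allowing up to 2 mismatches, and counted with RSEM 1.2.31 on GRCh38, per the study's methods and the submitters' processing notes, which also name CASAVA 1.8.2. The values deposited by the authors are RSEM's expected counts of 17492 genes, which need not be whole.

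The expected counts were rounded to whole numbers and divided by the library total to give CPM, with a pseudocount of 1. Libraries of the experiments were paired by the cell number of the labels, which marks 1 stored cDNA. As a check, the deviations of log2(CPM + 1) from the mean over cells correlated across genes between same-numbered libraries of EQ and EQ-75%, and r was at least 0.881 in EC and 0.872 in TB. Replication ended at 1 preparation per experiment, shared by both cell types, so calls rest on a rule of size and no test was made. Total counts set the precision of each value, which covers counting error only.

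Transcript features came from GENCODE v44 canonical transcripts, matched to 17431 genes (99.7%). Windows shared between genes were grouped as none, up to 10%, 10% to 50% and over 50%, because too many genes were at 0 for 10 equal groups. Named genes were the 10 highest and 10 lowest called the same way in both cell types, the 3 highest and 3 lowest called in 1 type only, the 2 most abundant of each of 24 lists, and the 3 most abundant markers of each cell type. Some genes that this rule picks are not reported here. The comparison, cells, lists and rules were chosen with earlier results of these data known. Alternatives were other pseudocounts, filters, scalings (TMM from edgeR 4.0.16 in R 4.3.3), thinning to equal depth, unrounded counts, no pairing, means in place of medians, stricter limits and other transcript choices. After seeing the data, GC content of coding sequence, coding length, leaving out EC 13 and TB 16, and the spread of library GC content without 2 cells of each type were added. The calling rule was also run on simulated counts that held counting error only. They held no spread between preparations, so the run does not bear on such spread. Scripts ran in Python 3.11.15 (matplotlib 3.10.9 for figures, pandas 2.3.3, numpy 2.4.6 and scipy 1.17.1).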

Additional observations from a re-analysis of the deposited data

How the results depend on the processing

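No GC or length difference, no median of the ribosomal protein or respiratory chain lists and no named gene that was called changed sign under an alternative. Of the other values, 30 medians of lists, all reported between -0.060 and 0.020, and 29 values of named genes that were not called, between -0.069 and 0.050, did change sign. The median of all TB genes was 0.011 with a limit of 50 CPM. Of the counts of genes, 41 of 56 values stayed within 1.5 times the reported ones, and of the medians of lists 309 of 312 moved by less than the spread over cells. The counts that moved are given here beside the reported 39 higher and 401 lower in EC and 97 higher and 241 lower in TB. With every cell counted and no filter on low values, 21 genes were higher in EC and 48 in TB. With a cell measurable at a mean of 50 CPM, 152 were lower in EC and 120 in TB. Centring each cell on its median, which removes the median of all genes by construction, gave 114 higher and 207 lower in EC. The mean over cells gave 127 higher in EC and 152 in TB. The limit of 0.5 and 90% of cells, stricter by construction, left 2 higher and 19 lower in EC and 2 higher and 10 lower in TB. Without the pairing by cell (no replicate block), 161 genes were higher and 948 lower in EC and 740 lower in TB. The correlation of the EC and TB shifts across genes was then 0.63 against 0.80. This setting took a difference of means over all cells passing in each experiment. It also dropped the limit of 10 CPM within a cell and the limit on the share of cells. The part of the pairing alone cannot be told apart from these changes. The cause of the other differences was not tested.

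The difference between the highest and the lowest GC group ran from -0.36 to -0.27 in EC and from -0.26 to -0.22 in TB over the alternatives, and the median of the ribosomal protein genes from -0.29 to -0.18 and from -0.29 to -0.22. With 1 preparation per experiment, the spread between preparations is unknown, and genes under 10 CPM in most cells were not measured.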
